A study of Sus scrofa with 5 samples.

Results

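Erythroid barcodes were sought in single-cell RNA libraries of the cecal mucosa of male Large White piglets, and 195 of 72701 barcodes with at least 200 detected genes were members, a share of 0.268% (95% interval 0.232 to 0.309, exact Clopper-Pearson). A member was chosen by its measured counts: at least 3 unique molecular identifiers (UMIs, tags that count single captured RNA molecules) summed over ALAS2, AHSP and HBM. The counts of these 3 genes are therefore a description of the choice and not a finding, and since whole barcodes were selected on them, every comparison of members with other barcodes below is a description as well. The 5 libraries came from untreated, milk-fed piglets at birth (d0) and at d1, d7, d14 and d21, with 1 library per age into which the cells of 5 piglets had been mixed. The cells were released from washed, scraped mucosa with EDTA and a short trypsin digestion, passed through a filter and loaded without any sort that the methods name. Because the piglets of a library cannot be separated, there is no replicate at any age, no test was possible, and what belongs to an age and what to its library cannot be told apart. How many of the 5 piglets contributed erythroid barcodes is unknown. Total counts in the kept barcodes were 83394038, 80196009, 47921183, 91863866 and 69522315 from d0 to d21, and all intervals cover counting error only.

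Red blood cells arise in the bone marrow, and before and around birth also in the liver. Maturing erythroblasts fill with hemoglobin, a tetramer of alpha-like and beta-like globin chains that each hold a heme group, then expel the nucleus and become reticulocytes, which clear their organelles and keep a shrinking store of RNA before they turn into RNA-free erythrocytes. Reticulocytes circulate in the blood. ALAS2 is the erythroid form of the first enzyme of heme synthesis, AHSP is a chaperone of free alpha-globin, and HBM (hemoglobin subunit mu) is an alpha-like globin gene. In the reference annotation of Sscrofa11.1, ALAS2 lies at chrX:47871519-47896041, AHSP at chr3:17059340-17060343, HBM at chr3:41489312-41490110 and the beta-globin gene HBB, which the choice did not use, at chr9:4800683-4801941.

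The members were nearly all from d7. There were 3 members at d0, 1 at d1, 170 at d7, 2 at d14 and 19 at d21, so that d7 held 87.2% of them (95% interval 81.7 to 91.5) and 25 remained without it. As a share of the kept barcodes this was 0.0197% at d0 (0.00407 to 0.0576), 0.00707% at d1 (0.000179 to 0.0394), 1.65% at d7 (1.42 to 1.92), 0.0124% at d14 (0.0015 to 0.0447) and 0.112% at d21 (0.0677 to 0.176). The interval of d7 overlapped none of the others, and that of d21 lay above those of the remaining 3 libraries. The minimum of 200 genes removed more of these barcodes at d7 than it kept. Below it, 316 of the 552 barcodes of d7 had at least 3 UMIs of the 3 genes (57.2%, 53.0 to 61.4), against 15 of 83 at d21 (18.1%, 10.5 to 28.0), 2 of 132 at d0 and 0 of 96 at d14, where a count of 0 allows up to 3.12%, and the d1 library held no barcode under 200 genes. Without the minimum the shares of all deposited barcodes were 4.49% at d7 (4.11 to 4.9), 0.2% at d21 (0.139 to 0.28) and at most 0.0326% elsewhere.

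**Figure D1:**
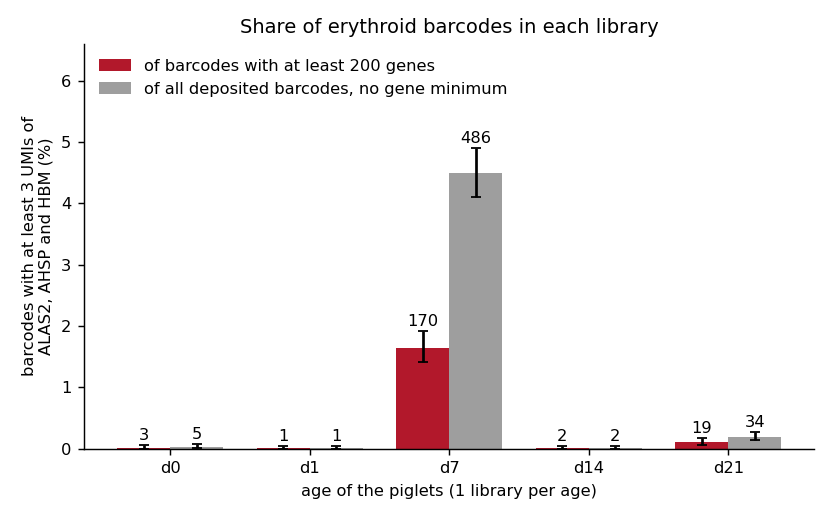
Percent of barcodes with at least 3 UMIs of ALAS2, AHSP and HBM in each of the 5 libraries, among barcodes with at least 200 genes (red) and among all deposited barcodes (grey); bars start at 0, error bars are exact 95% intervals and the numbers above the bars are barcodes. The d7 library stands apart, with 170 and 486 barcodes, and its share is 1.65% with the gene minimum and 4.49% without it.

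HBB was found in nearly every member, as the label implies. All 170 members of d7 held HBB, with a minimum of 3, a median of 1182 and a maximum of 3840 UMIs. All 19 members of d21 held it as well, with a minimum of 196, a median of 756 and a maximum of 1067 UMIs. The 3 members of d0 had 388, 160 and 581 HBB UMIs, the member of d1 had 489, and those of d14 had 0 and 2742. The d14 barcode without HBB was a member through 4 AHSP UMIs alone and had 1691 detected genes and no hemoglobin UMI, so it went against the label. Among the d7 members, 128 held all 3 genes of the rule, 31 held 2 of them and 11 held a single gene. The 13 barcodes of d7 just inside the threshold, at 3 UMIs, had from 3 to 1045 HBB UMIs with a median of 68, and the 10 just outside, at 2 UMIs, had from 0 to 506 with a median of 14.5.

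Between libraries, 566 barcode sequences occurred in 2 or more of the kept sets, and 2 of the 195 members carried such a sequence. No sequence was a member in 2 libraries.

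Hemoglobin genes made up 34.0% of all counts of the d7 members, 18.5% at d21, 20.2% at d0, 60.5% at d1 and 37.0% at d14, against 0.0198% in the other cells of d7. Per barcode the share at d7 ranged from 0.154% to 87.1% with a median of 47.2%. In 84 of the 170 members, hemoglobin genes took over 50% of the UMIs, and in 14 members they took under 5%. At d21 the median was 59.5% (1.96 to 76.6), and the 3 members of d0 had 20.4%, 9.74% and 28.6%. The summed share lay below the median at d7 and d21 because a sum weights barcodes by their UMIs, and the members with many UMIs had low hemoglobin shares.

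Nearly all of this RNA was assigned to HBB. The d7 members held 210009 HBB UMIs, a level of 3342 per 10000 counts (95% Poisson interval 3328 to 3356), against 1.88 per 10000 in the other cells of d7. The other annotated hemoglobin genes had few UMIs beside it. HBM had 3485 UMIs, and LOC100737768 and LOC110259958, a pair of protein-coding loci that lie between HBQ1 and HBM at chr3:41486699-41487559 and chr3:41482353-41483564, had 148 and 70. These loci and HBM stand in the same gene cluster. Gene counting can lose or split reads that match several near-identical copies, and whether this happened here was not tested. The low counts of these genes are therefore uncertain as levels of the alpha-like chains. HBZ, the embryonic zeta chain, had 27 UMIs in 21 of the d7 members, and HBE1, the embryonic epsilon chain, had 5 UMIs in 3 of them. HBQ1 had 45 UMIs in the members, at 0.716 per 10000, and 374 in the other cells, at 0.0791. It overlaps NPRL3 by 1688 bases and was also seen at d0 in 256 UMIs of other cells, where HBM had 5, so its counts cannot be assigned to the globin gene alone. NPRL3 itself had 3 UMIs in the d7 members, at 0.0477 per 10000, against 0.0719 in the other cells of d7. Which gene the HBQ1 counts came from was not tested.

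Among the d7 members, barcodes with more detected genes had lower hemoglobin shares. Across the 170 members the Spearman correlation of detected genes with hemoglobin share was -0.811 and the Pearson correlation with log10 genes was -0.823, given as a description of barcodes that share 1 library, depth and a total that includes hemoglobin. To show this, the barcodes of d7 past the 3 UMIs were split by detected genes, with limits set after the data were seen. The 316 barcodes under 200 genes, which are not members, had a median of 1315 UMIs, of which 246 were not hemoglobin, and a median hemoglobin share of 82.3%. The 66 members with 200 to under 300 genes had 71.1%, the 55 with 300 to under 1000 genes had 42.1%, and the 49 with 1000 genes or more had 14.7%. The last group also had the most RNA, with a median of 5981 UMIs and of 5051 UMIs outside hemoglobin, against 516 in the members with 200 to under 300 genes and 2335 in the other cells. Mitochondrial transcripts took a median of 0.305%, 0.413%, 5.74% and 4.03% of the UMIs in these 4 groups and 7.45% in the other cells.

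**Figure D2:**
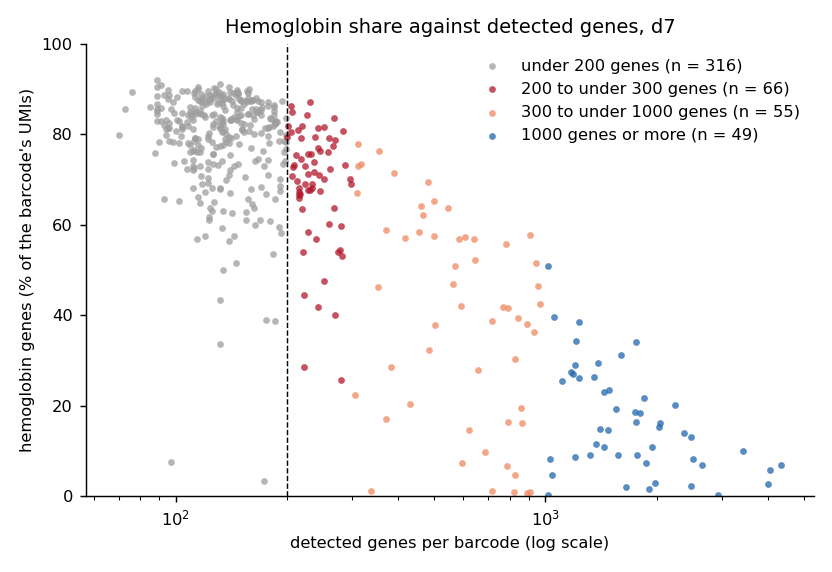
Each point is a barcode of d7 with at least 3 UMIs of ALAS2, AHSP and HBM; the x axis gives detected genes on a log scale and the y axis the percent of its UMIs in hemoglobin genes, with the 200-gene minimum as a dashed line. The median hemoglobin share is 82.3% below the minimum and 71.1%, 42.1% and 14.7% in the 3 groups of members with rising gene number.

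Levels of all other genes were compared between the 170 members and the 10102 other cells of d7 as log2 ratios of UMIs per 10000 counts with 0.1 added, which understates the ratio of low genes. Of 2734 genes with at least 20 UMIs in the members, 38 were at least 4-fold higher in them (1.39%) and 17 at least 4-fold lower (0.622%). The minimum was set on the members alone, so it kept genes that were high in them and removed genes that were low. Without it, over 16917 genes, 38 were higher and 75 lower, and the 2 counts of the comparison, like the absence of lower genes in a list, are not to be read against each other. The median ratio over the 2734 genes was -0.55 on the log2 scale, since hemoglobin took up 34.0% of the members' counts. With hemoglobin left out of both totals the median was -0.01 and the counts became 57 higher and 7 lower. Of the 38 genes, 18 belonged to the erythroid lists or the hemoglobin genes and 20 to neither. Of the 17 lower genes, 5 were on the list of epithelial markers. That list does not hold every epithelial gene, since TFF3, a goblet marker in the study, was among the other lower genes.

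In the heme synthesis list the gene with the highest ratio, apart from ALAS2 of the rule, was FECH, the ferrochelatase that inserts iron into the finished ring. Of 13 listed genes 12 were in the matrices, all were seen in the members, 5 had at least 20 UMIs, 2 of these were at least 4-fold higher and none lower, with a median log2 ratio of 1.96. Without ALAS2, which the choice of members placed there, 4 genes had at least 20 UMIs, 1 was higher and the median was 1.90. With hemoglobin left out of the totals 4 genes, ALAS2 included, were higher, and with 1 added in place of 0.1 ALAS2 alone was. FECH had 182 UMIs in 75 of the 170 members, a level of 2.9 per 10000 (2.49 to 3.35) against 0.152 in the other cells, a log2 ratio of 3.57. The intermediate enzymes UROS and ALAD had ratios of 1.96 and 1.36, below the 4-fold limit. The late enzymes CPOX and PPOX had 6 and 3 UMIs, too few for a ratio to be read.

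Genes of the red cell membrane and its spectrin skeleton were split between well seen and nearly absent members. Of 20 measured genes, 6 had at least 20 UMIs, 4 of these were at least 4-fold higher and none lower, with a median log2 ratio of 2.13. With 1 added in place of 0.1 none was higher (median 0.95), and with each barcode weighted equally 3 were. TMCC2 had 78 UMIs in 31 members, at 1.24 per 10000 (0.981 to 1.55) against 0.00698 in the other cells, a ratio of 3.65. Of the others, DMTN, the actin-bundling dematin, had a ratio of 2.23 and EPB41, protein 4.1, one of 2.03. Glycophorin C (GYPC) was at 1.55, and CD47, a surface protein that many cells carry, at -1.23. SLC4A1, the band 3 anion exchanger, had 17 UMIs in 10 members and 0 in the 47292819 counts of the other cells, and the Rh-associated RHAG had 7 and 0. The spectrin SPTB had 1 UMI and ankyrin ANK1 had 2, so for these the members' counts lay at or under the floor of 3.

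In the iron list NCOA4 had the highest ratio, the ferritin chains had smaller ones and 3 genes were below 0 with hemoglobin in the totals. Of 14 measured genes, 6 had at least 20 UMIs, 1 was at least 4-fold higher and none lower, with a median log2 ratio of 0.23. NCOA4, the receptor that delivers ferritin to autophagy, had 254 UMIs in 97 members and a level of 4.04 per 10000 against 0.445, a ratio of 2.93, which was 1.80 with 1 added in place of 0.1. The ferritin light chain FTL stood at 55.7 per 10000 in the members and 21.6 in the other cells, a ratio of 1.36, and the heavy chain FTH1 at 61.4 and 40.5, a ratio of 0.60. The iron chaperones PCBP1 and PCBP2, which also bind RNA, were at -0.54 and -0.58 with 114 and 64 UMIs, and FAM210B, a mitochondrial protein, at -0.13 with 24. PCBP1 and PCBP2 thus lay near the median of all 2734 genes, -0.55. With hemoglobin left out of the totals the sign of FAM210B turned, to 0.37, and the list median was 0.78. With each barcode weighted equally FAM210B was at 0.08. TFRC, the transferrin receptor through which erythroblasts take up iron, had 5 UMIs in 5 members, at 0.0796 per 10000 against 0.0852. SLC25A37, the mitochondrial iron importer mitoferrin, had 18 UMIs in 10 members.

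Genes that act in the last steps of maturation had ratios on both sides of 0. Of 19 measured genes, 12 had at least 20 UMIs, 2 were at least 4-fold higher and none lower, with a median log2 ratio of 1.21. With hemoglobin left out of the totals 6 were higher, with 1 added in place of 0.1 none was (median 0.47), and with 0.01 added 3 were higher and 1 lower. UBE2O, a ubiquitin-conjugating enzyme of reticulocyte remodelling, had 124 UMIs in 68 members and a ratio of 3.17. TRIM58, a ubiquitin ligase of late erythroblasts, had 27 UMIs in 24 members at 0.43 per 10000 against 0.00106, a ratio of 2.39. BNIP3L, the receptor for the removal of mitochondria from reticulocytes, had 125 UMIs in 66 members and a ratio of 1.99, just under the limit. RNF10, GABARAPL2 and MXI1 were at 1.78, 1.73 and 1.61, and XPO7, UBAC1 and MAP1LC3B at 0.82, 0.81 and 0.54. On the other side of 0 were BSG, the surface protein basigin, at -1.91, CAST, the calpain inhibitor calpastatin, at -0.68 and the ubiquitin gene UBB, with 2889 UMIs, at -0.27. UBB lay above the median of all 2734 genes, -0.55. ALOX15, the lipoxygenase described in rabbit reticulocytes, had no UMI. It was at 0.0019 per 10000 in the other cells, under the 0.0477 that a 0 in the members allows, so this 0 separates nothing.

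Among the red cell enzymes and antioxidants, 9 of 13 measured genes had at least 20 UMIs, 1 was at least 4-fold higher and none lower, with a median log2 ratio of 0.57. BLVRB, biliverdin reductase B, had a ratio of 2.01 (1.13 with 1 added), HAGH 1.69, BPGM, which makes 2,3-bisphosphoglycerate, 1.45 and PRDX2, an abundant red cell peroxiredoxin, 1.37. GPX1 was at 0.57 and catalase (CAT) at 0.21, and the general antioxidant genes SOD1 and TXN were at -0.85 and -1.30 and the purine enzyme PNP at -1.04.

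Regulators of early erythroid cells had few UMIs, and only some were above the other cells. Among 16 erythroid transcription factors, 2 had at least 20 UMIs, FOXO3 and E2F4, and neither passed the 4-fold limit in either direction. GATA1, the master regulator of the lineage, had 3 UMIs in the 628364 counts of the members, TAL1 had 1, and KLF1 had 0, which allows a level of up to 0.0477 per 10000. NFE2, a factor of globin gene activation, had 14 UMIs in 12 members, at 0.223 per 10000 against 0.0533 (ratio 1.07), SOX6 had 8 (0.96) and E2F2 had 18 (0.60), all under the 20 UMIs. In the list of erythropoietin signalling and progenitor genes, EPOR, CISH, GATA2 and CD34 were at 0 and MYB had 1 UMI. Like KLF1, the 4 genes at 0 were also under 0.0477 per 10000 in the other cells, so their 0 separates nothing at this depth. Of the 4 genes of that list with at least 20 UMIs, HEMGN was 4-fold higher, with 51 UMIs in 38 members, 0.812 per 10000 against 0.0214 and a ratio of 2.91 (0.83 with 1 added). The other 3, which lymphoid or myeloid cells also express, were the receptor KIT with 21 UMIs in 11 members (-0.15) and the kinases LYN with 43 in 28 (-0.40) and JAK2 with 28 in 20 (-0.56). With hemoglobin left out of the totals the median of the 4 genes went from -0.28 to 0.23. Of the 7 regulators of the fetal globin program none reached 20 UMIs. The 11 cell cycle genes with at least 20 UMIs had a median ratio of -0.23 and none passed the limit. They ran from -0.93 (PCNA) to 0.23 (UBE2C), with MKI67 and TOP2A at -0.75. The median was 0.35 with hemoglobin left out of the totals and -0.91 with each barcode weighted equally, so its direction is not read. In the 52 members without markers of other cell types, which held 121237 counts, 7 of these 11 genes were at least 4-fold lower than in the other cells and none higher, with a median of -2.31, and none had over 10 UMIs there. This is near the background, since of all 2734 genes with at least 20 UMIs in the 170 members 57.1% were 4-fold lower in the 52, with a median of -2.17, and nothing particular to the cell cycle is read from it.

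**Figure D3:**
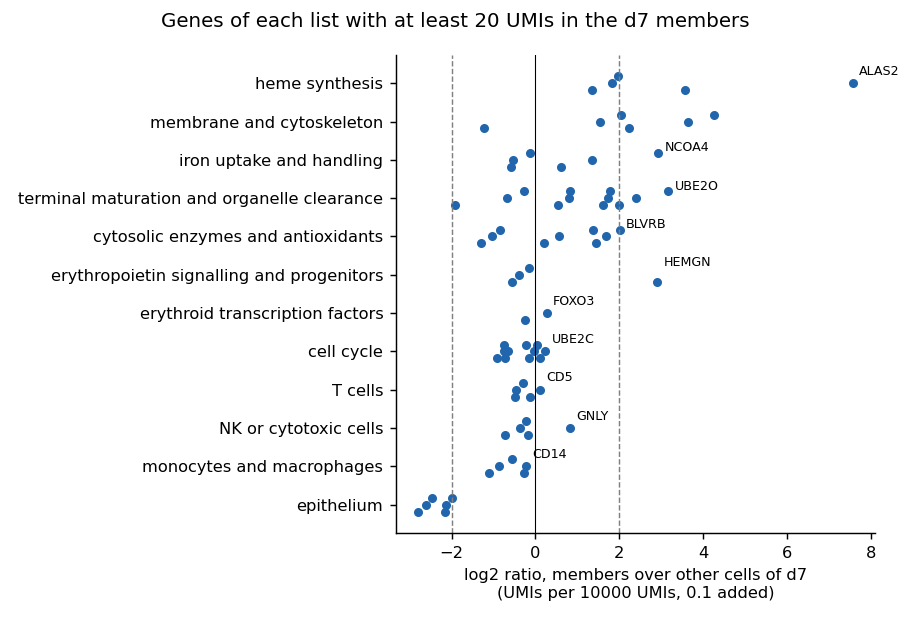
Each point is a gene of the list on its row with at least 20 UMIs in the 170 d7 members; the x axis gives the log2 ratio of its level in members over the 10102 other cells, dashed lines mark 4-fold, and the gene with the highest ratio is named for each list but those of membrane and epithelium. Heme, membrane, iron and maturation genes reach to the right (ALAS2 was used by the rule), cell cycle and lymphocyte genes lie around 0 over all members and epithelial genes lie between -2.81 and -1.99.

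Outside all lists, the 2 genes with the highest ratios were SNCG and PYY. SNCG, gamma-synuclein, a small protein best known from neurons and lying at chr14:87916353-87922111, had 1038 UMIs in 137 of the 170 members, 16.5 per 10000 (15.5 to 17.6) against 0.0182 in the other cells, a ratio of 7.14. It was seen with the erythroid barcodes of every library: in 2 of the 3 members of d0, in the member of d1, in the d14 member with HBB, which had 34 UMIs, and in 15 of the 19 members of d21. At d7 its ratio to HBB was 2.88 UMIs per 1000 HBB UMIs in the barcodes under 200 genes and 6.02, 4.3 and 3.69 in the members with 200 to under 300, 300 to under 1000 and 1000 or more genes.

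PYY, the gut hormone peptide YY of enteroendocrine cells (chr12:19190703-19208373), had 915 UMIs in the d7 members, 14.6 per 10000 (13.6 to 15.5) against 0.0603 in the other cells, a ratio of 6.52. Unlike SNCG it was unevenly spread. Of the 170 members 113 had no PYY UMI, 31 had 1 to 9 and 26 had 10 or more, up to 107, and these 26 held 88.3% of the members' PYY. The barcodes under 200 genes had the same form, with 209 of 316 at 0 and 38 at 10 or more. HBB did not separate these groups widely, with a median of 1075 UMIs in the 322 erythroid barcodes of d7 without PYY and 1512 in the 64 with 10 or more. Other enteroendocrine genes were not seen with it: CHGA, CHGB, GCG, SST and PPY all had 0 UMIs in the 486 erythroid barcodes of d7. In the other cells of d7 PPY was also at 0 and GCG at 0.0311 per 10000. Both are under the 0.0477 that a 0 in the members allows, so their 0 in the members separates nothing. CHGA, CHGB and SST were at 0.0981, 0.112 and 0.0755 in the other cells. In the other cells of d7, 285 PYY UMIs were found in 41 barcodes, and 50.5% of them were in barcodes with a UMI of CHGA, CHGB, GCG or SST. The same share was 97.2% at d0, 95% at d1, 94.9% at d14 and 94.1% at d21. At d0 and d1, where the other cells held 22094 and 22370 PYY UMIs, the 5 and 1 erythroid barcodes held none. A 0 allows up to 5.23 per 10000 in the members of d0 and 37 in the member of d1. PYY was at 2.65 and 2.79 in the other cells there, so these 0 counts separate nothing. At d14, where 11 other cells held PYY, 1 of the 2 erythroid barcodes held 2 UMIs, and at d21 the 34 erythroid barcodes held 8.

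**Figure D4:**
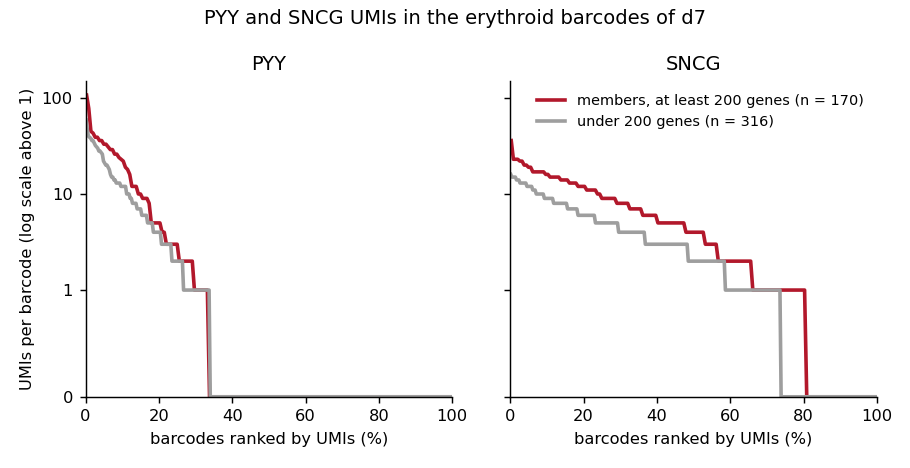
UMIs of PYY (left) and SNCG (right) per erythroid barcode of d7, ranked from high to low; the x axis gives the rank in percent of the barcodes and the y axis the UMIs, linear up to 1 and logarithmic above, for the 170 members (red) and the 316 barcodes under 200 genes (grey). PYY is at 0 in 113 members and reaches 107, whereas SNCG is at 0 in 33 members and reaches 36.

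The next genes in this order were LOC100738720, with 227 UMIs in 95 members against 13 UMIs in all other cells of d7 (ratio 5.18), and ARG1, the arginase of the urea cycle, with 189 UMIs in 68 members (3.29). LOC110259374 and LOC100621260 followed at 3.21 and 3.08, with 208 and 47 UMIs. Mitochondrial proteins were among the rest: SLC25A39, a mitochondrial carrier, was at 2.67 and ATPIF1, the inhibitor of the mitochondrial ATP synthase, at 2.49 with a UMI in 155 members. FAM46C was at 2.58, FAM213A at 2.51, MARCH2 at 2.43, STRADB at 2.35 and R3HDM4 at 2.18, each with a UMI in 60 to 121 members. INO80C was at 2.26 with 86 UMIs in 44 members and TMEM225B at 2.06 with 22 in 19. CCDC42, REEP1, INMT, CRYBA4 and TNNI1 had between 22 and 35 UMIs in all, at ratios of 2.70, 2.46, 2.38, 2.38 and 2.15. Some of these counts sat in few barcodes: INMT was seen in 10 members and CRYBA4 in 8.

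Within the members the summed levels of the erythroid lists were lower in barcodes with more detected genes, but not every gene followed. Between the members with 200 to under 300 genes and those with 1000 or more, all 5 heme genes with at least 20 UMIs were lower in the latter, as were 5 of 6 membrane genes (not CD47), 4 of 6 iron genes (not PCBP1 and PCBP2) and 10 of 12 maturation genes (not BSG and CAST). Of the enzymes 6 of 9 were lower (not PNP, SOD1 and TXN), and of the progenitor list 1 of 4, with JAK2, KIT and LYN higher. The heme count includes ALAS2 of the rule. The share of all genes that were lower was not counted, so these counts are not read as particular to the lists. Per 10000 counts outside hemoglobin, the whole heme synthesis list summed to 252 in the barcodes under 200 genes, 197, 65.8 and 15.2 in the 3 groups of members with rising gene number, and 2.06 in the other cells. Most of this sum was ALAS2 of the rule, whose minimum of UMIs sets a higher level in barcodes with fewer other counts, and without it the list gave 24.8, 43.6, 14.9, 4.33 and 2.05. The iron list, most of it FTH1 and FTL, gave 1007, 754, 307, 90.8 and 68.4 in the same order. In the 3 groups of members the enzymes gave 133, 68 and 31.9, the transcription factors 7.05, 5.87 and 2.63 and the progenitor list 9.13, 5.17 and 3.68. The membrane list had its highest value in the members with 200 to under 300 genes, at 84.5, against 66.7 below them and 26.5, 7.35 and 2.92 above. Maturation genes, with UBB the most abundant, did likewise, with 184, 303, 122, 68.8 and 64.9. Among single genes, FECH stood at 25.8 and SNCG at 151 in the members with 200 to under 300 genes, and at 1.54 and 6.17 in those with 1000 genes or more.

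The cell cycle, T cell and NK or cytotoxic lists were highest in the members with most genes. The cell cycle list summed to 7.19 per 10000 non-hemoglobin counts in the barcodes under 200 genes, 8.87, 13.8 and 37.8 in the 3 groups of members, and 25.8 in the other cells. The T cell list gave 2.52, 2.09, 6.85, 11.2 and 7.89, and the list of NK or cytotoxic cells gave 24.2, 11.2, 46.1, 90.2 and 50. In the members with 1000 genes or more these 3 lists lay above the other cells, as did the mast cell list at 2 against 0.895 and the endothelial list at 0.755 against 0.542, whereas the B cell list was at 1.74 against 2.66 and the plasma cell list at 1.02 against 1.79. Also below the other cells were the epithelial list at 17.8 against 51.3 and the monocyte and macrophage list at 5.88 against 9.1. The fibroblast list was at 0.0985 against 2.5 and the neutrophil list at 0.295 against 1.25. Whether such a barcode held 1 cell or several was not tested, and doublets were not removed. The other cells were not held to 1000 genes and had a median of 1057. The sums of this group can also rest on few barcodes, whose depth ran from 1947 to 28705 UMIs. All 40 UMIs of the mast cell gene MS4A2 were in this group and came from 4 members.

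**Figure D5:**
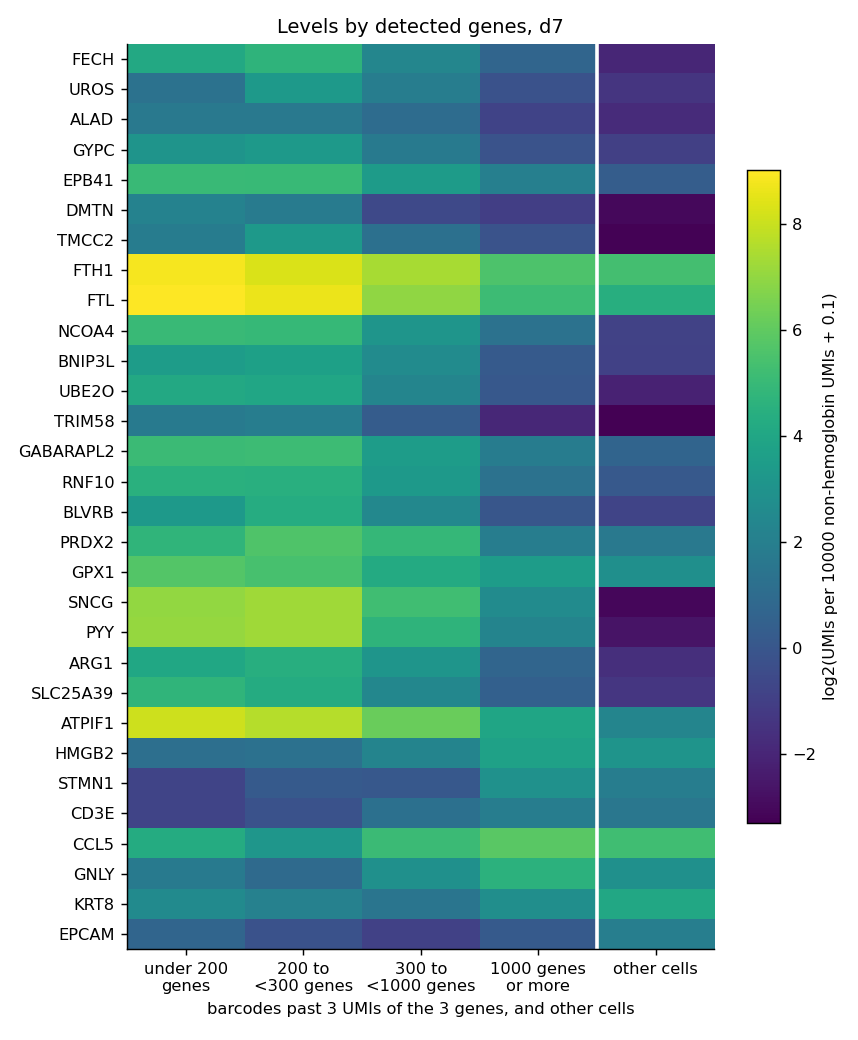
Colours give log2 of the level (UMIs per 10000 non-hemoglobin UMIs, 0.1 added) of the genes named in rows, for the d7 barcodes past the 3 UMIs split by detected genes and for the other cells of d7, in columns. Across the 3 columns of members FECH, NCOA4 and SNCG are lower with more genes and CD3E and GNLY are higher, and STMN1 is highest in the members with 1000 genes or more.

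Markers of other cell types were present in most members. At d7, 118 of the 170 members (69.4%) had at least 2 UMIs on a list of another cell type, against 90.6% of the other cells, and these 118 had a median of 834 genes and a median hemoglobin share of 30.8%, while the remaining 52 had 240 genes and 70.0%. The share was 37.9% in the members with 200 to under 300 genes and 98.0% in those with 1000 or more. The limit of 2 UMIs was not scaled to depth, and these groups had medians of 516 and 5051 UMIs outside hemoglobin. A deeper barcode reaches the limit more easily, so these differences in share, genes and hemoglobin cannot be told apart from depth. All 7 measured T cell genes were seen, summing to 6.32 per 10000 counts of the members against 7.89 in the other cells, led by CD3E with 130 UMIs. All 8 genes of NK or cytotoxic cells were seen, at 49.7 against 50, led by CCL5 with 2055 UMIs, and GNLY was at a log2 ratio of 0.83 with 806 UMIs in 23 members. The direction of GNLY turned to -0.42 with each barcode weighted equally. With hemoglobin left out of the totals the median ratio went from -0.30 to 0.19 for the T cell list. For the NK or cytotoxic list it went from -0.22 to 0.36. With each barcode weighted equally these medians were -1.17 and -0.83, so no direction is read from either list. The epithelial list was at 10.2 against 51.2 with all 8 genes seen and KRT8 leading with 238 UMIs, and 5 of its 6 genes with at least 20 UMIs were at least 4-fold lower, which became 2 with hemoglobin out of the totals and 0 with each barcode weighted equally. Monocyte and macrophage genes, 9 of 11 seen and led by FCN1 with 87 UMIs, summed to 4.98 against 9.1, with C1QA and C1QB at 0. The median ratio of that list went from -0.56 to 0.01 with hemoglobin out of the totals. B cell genes were at 1.05 against 2.66 with CD79A at 0 and CD79B leading with 31 UMIs, and plasma cell genes at 0.573 against 1.79 with MZB1 leading with 19. The 0 of CD79A separates nothing, since that gene was at 0.0169 in the other cells, under the 0.0477 that a 0 allows. The part of these cells' RNA in the values of the members was not tested.

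Several markers of rarer types had no UMI in the members, but each of those named here as 0 was also under 0.0477 per 10000 in the other cells of d7, so that the 0 separates nothing at this depth. Of 7 measured genes of megakaryocytes and platelets, PPBP, ITGA2B, GP9, GP1BA, TUBB1 and TREML1 had no UMI and ITGB3 had 2, and the list summed to 0.0318 per 10000 against 0.0518. VWF, CDH5, KDR and CLDN5 of endothelium were at 0, with PLVAP at 19 UMIs and a sum of 0.398 against 0.542, and SOX10 of glia was at 0, with S100B at 16. Fibroblast genes summed to 0.334 per 10000 against 2.5, led by COL1A1 with 5 UMIs, and genes of pericytes or smooth muscle to 0.111 against 0.521, led by ACTA2 with 3. Neutrophil genes were at 0.875 against 1.25, led by S100A12 with 20 UMIs, with MMP9 and LTF at 0, and mast cell genes at 1.02 against 0.895, led by MS4A2 with 40 UMIs in 4 members, with CPA3 at 0. In the list of heme-recycling macrophages, which take up aged red cells, SPIC, HPX and CD5L were at 0, HMOX1 led with 25 UMIs and the sum was 0.589 against 1.41.

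HBB was also found thinly across the other cells of d7. Of 10102 such barcodes 3327 (32.9%) had an HBB UMI, at a median depth of 2336 UMIs, against 1.5% at d0, 1.24% at d1, 0.223% at d14 and 2.61% at d21. With every barcode thinned to 500 UMIs, none being shallower, the expected share at d7 was 9.87% (9.29 to 10.5). It was 6.21% in barcodes marked as T cells, 7.21% in B cells, 9.07% in monocytes and macrophages, 7.86% in fibroblasts and 8.07% in epithelium, whose median depths were 4311, 3441, 2061, 2938 and 3930 UMIs and whose unthinned shares were 35.0%, 35.8%, 30.7%, 29.0% and 47.0%. At the same depth it was at most 0.815% in the other cells of every other library. Hence a few HBB UMIs in a d7 barcode lay within the level of cells that should lack the gene. Only 23 other cells of d7 had at least 50 HBB UMIs, with a median of 144 and a maximum of 506. Of the 170 members, 5 had a hemoglobin share under 1%, with 3 to 26 HBB UMIs. The other cells held 33 UMIs of ALAS2, 49 of AHSP and 65 of HBM, where the rule itself allows no more than 2 per barcode. Thinned to 500 UMIs, HBB would be seen in 99.6% of the members, whose median depth was 2522 UMIs.

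The few members of the other ages are given beside those of d7 without a comparison, since 50 members were the least set for one. At d21 the 19 members had a median of 1425 UMIs and 289 genes and held 75595 counts in all, of which the deepest barcode alone held 27821, so that these levels rest in large part on it. Their SNCG level was 6.48 per 10000 (4.8 to 8.57) against 0.0153 in the other cells of d21, FTL was at 20.1 against 8.64 and NCOA4 at 1.85 against 0.346. FTH1, with 182 UMIs, was at 24.1 against 30, a log2 ratio of -0.32, and HEMGN and TMCC2 had no UMI. A 0 in these members allows up to 0.397 per 10000. HEMGN and TMCC2 were at 0.0112 and 0.0104 in the other cells of d21, so their 0 separates nothing. FECH had 4 UMIs in 4 members and PYY had 4 in 4. Of the 8 NK or cytotoxic genes 7 were seen there, at 171 per 10000 against 131 in the other cells of d21, and 17 of the 19 members had at least 2 UMIs on that list. ALAS2 had no UMI in the 3 members of d0, which were members through AHSP and HBM. The d0 member with 160 HBB UMIs also held 463 UMIs of SST, the hormone somatostatin of another enteroendocrine cell, and the one with 581 HBB UMIs had 54.0% mitochondrial counts. The member of d1 had 811 UMIs in 237 genes, and the d14 member with HBB had 3456 UMIs in 293 genes and a hemoglobin share of 81.7%.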

How the data were processed

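Per the labels and the study's methods, cells of 5 piglets were pooled at each of 5 ages and sequenced as 1 droplet library per age. The authors made the deposited UMI count matrices with Cell Ranger 3.1.0 and STAR on susScr11 (Sscrofa11.1) from RefSeq genes. The counts are raw and whole. The labels name kit V3 and the methods an earlier version. Every deposited barcode had at least 500 UMIs, and each matrix has more barcodes than the forced cell number of the methods. Barcodes with at least 200 genes were kept, as in the methods, and no doublet caller, clustering, ambient correction or age integration was applied. How counting used strand is not given in the sources used here.

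The members and gene lists were chosen with earlier results of these data known. Counts were summed over barcodes and expressed per 10000 counts of the same barcodes. Log2 ratios had 0.1 added, and a ratio of at least 4-fold among genes with at least 20 UMIs in the members was counted as higher or lower. Shares have exact binomial and levels exact Poisson 95% intervals, and a count of 0 allows 3 counts. Named were the 4 marker genes, the hemoglobin genes, list genes with at least 20 UMIs, and the 20 other genes with the highest ratio. A few list genes are not reported here, and lists of the cell cycle and of other cell types are given by sums and leading genes. SLC4A1, RHAG, SPTB, TFRC, the early regulators, the enteroendocrine genes and other genes under 20 UMIs were named after their values were seen. UMIs were counted at the 3′ end of transcripts and not scaled to gene length, so levels are compared between barcodes and not between genes. Marked cell types in the HBB comparison needed 3 UMIs on their list and more than on the other 5 lists. Shares thinned to 500 UMIs are expected values of drawing without replacement, and thinning to 1000 for the rule was 1 seeded draw. All 20648 gene names matched RefSeq. The ratio step was tested on simulated data for the d7 comparison with 4290 genes, where 100 of 100 genes raised 8-fold and 0 of 4090 unchanged genes passed the 4-fold limit, and 60 of 100 lowered 8-fold did, since the added 0.1 shrinks low genes. Python 3.11.15, NumPy 2.4.6, SciPy 1.17.1, pandas 2.3.3 and matplotlib 3.10.9 were used.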

Additional observations from a re-analysis of the deposited data

Results flagged for a closer look

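Signal of the same genes appeared in barcodes that the comparisons leave out. Under 200 detected genes, 316 of 552 barcodes at d7 and 15 of 83 at d21 had at least 3 UMIs of ALAS2, AHSP and HBM, above the 3 counts that a count of 0 allows. No explanation was tested.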

How the results depend on the processing

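No paired analysis was possible because each age is 1 library and no test was run. Members of one age were not compared with those of another, since only d7 had 50 members, so no alternative of that comparison was run. A value counted as moved when it left its counting interval. The d7 share was 1.27% with 10 UMIs in place of 3, 4.49% without a gene minimum, 1.04% with at least 500 genes and 1.96% among barcodes under 20% mitochondrial, and d7 had the highest share under all 8 alternatives. The d21 share was 0.0651% with 10 UMIs, 0.2% without a gene minimum and 0.0558% with 500 genes. The single member of d1 was lost, giving 0%, with 10 UMIs, with 500 genes and after thinning to 1000 UMIs. Hemoglobin took 35.4% of the d7 counts with 5 UMIs, 39.4% with 10, 67.9% without members that carried other cell types, 54.5% without a gene minimum, and 47.2% as the median over members. The same order gave 18.9%, 34.6%, 67.7%, 26.6% and 59.5% at d21, where 2 members were free of other cell types. At d0 it was 28.6% with 10 UMIs and 27.5% without a gene minimum. At d14 it was 81.7% with 5 or 10 UMIs, 0% without other cell types and 40.9% as a median, each resting on 1 or 2 members. Genes 4-fold higher at d7 numbered 8 with 1 added in place of 0.1, and otherwise from 38 to 57. Genes 4-fold lower numbered 7 with hemoglobin out of the total, 4 with 1 added, 26 with 0.01 added, 44 without members of other cell types, where 241 genes were compared, and 75 without a UMI minimum. Of 86 list and named genes, 22 passed 4-fold, and 7 to 22 of these did under each alternative, none with the opposite sign. Without members of other cell types 68 passed, 12 newly higher and 34 newly lower. Of these 34, 19 are markers by which those members were removed, so their fall is set by the removal. In this setting 39 of the 86 genes were 4-fold lower. So were 57.1% of all 2734 genes with at least 20 UMIs in all d7 members, with a median log2 ratio of -2.17. Nothing particular to the other 15 newly lower genes is therefore read. The equal weighting of barcodes was chosen after seeing the data, and by it all 5 epithelial genes were within 4-fold, with KRT8 at -0.93. With 1 added, no gene of the membrane, iron, maturation, enzyme or progenitor lists passed 4-fold, nor any heme gene but ALAS2. UMI depth limits what can be said of genes under 20 UMIs, and the members outside d7 are too few for any gene.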
